A study of Mus musculus with 9 samples.

Results

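Fc gamma receptors bind the constant region of IgG. The genes described are those of the 4 mouse receptors (Fcgr1, Fcgr2b, Fcgr3 and Fcgr4), of the gamma chain through which the activating receptors signal (Fcer1g) and of the neonatal Fc receptor (Fcgrt). They were chosen by symbol through GENCODE M21, and they make up 6 of the 53801 genes in the count table.

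The libraries hold RNA of cells positive for CD11b, a myeloid surface marker, sorted by FACS from tumor-bearing hemispheres of male C57BL/6J mice, 10 to 12 weeks old at the start. In every group, controls included, GL261 glioma cells carrying luciferase and tdTomato had been implanted. CTR mice (2 libraries) received saline, and OAT-1746 mice (2 libraries) received the arginase inhibitor OAT-1746 at 50 mg/kg by gavage, more than once a day. Anti-PD-1 mice (2 libraries) received an antibody to PD-1 at 2.5 mg/kg i.p. between days 8 and 14, and COMB mice (3 libraries) received both agents. The day of collection is 28 in the methods and 21 in a legend. Before staining for the sort, the cells were blocked with an antibody to CD16/CD32, the products of Fcgr3 and Fcgr2b. For anti-PD-1 replicate 2 the treatment is labelled anti-PD-2, and that library was grouped by its title. The methods call the libraries of a group biological replicates, and no label says whether each came from a separate animal, so p-values measure the spread between these libraries. Library totals ranged from 13048075 to 18796479 counts, and the lowest count of a member in any library was 1553, for Fcgrt. All 6 members were among the 12538 genes tested.

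The activating receptors signal through ITAM motifs of the gamma chain, which recruit the kinase Syk, and their crosslinking by IgG complexes drives phagocytosis and cytokine release. The inhibitory receptor FcγRIIB carries an ITIM in its own tail, which recruits the phosphatase SHIP, the product of Inpp5d, and dampens those signals. Microglia and infiltrating macrophages carry both kinds, while the neonatal receptor pairs with the product of B2m and salvages IgG from breakdown.

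Levels of Itgam, which encodes CD11b, the marker of the sort, and of Ptprc, which encodes CD45, were described. Itgam had 302 and 369.5 CPM (counts scaled to a common library size, with TMM factors) in CTR, 445 and 446 in OAT-1746, 294 and 327 in anti-PD-1, and 366, 307 and 328 in COMB. Ptprc ranged from 379 CPM in OAT-1746 replicate 2 to 759.5 in anti-PD-1 replicate 2. Both genes were present in all 9 libraries, which does not measure the purity of the sort. OAT-1746 replicate 2 stood apart, with correlations of log2 CPM to the other libraries between 0.911 and 0.956. COMB replicates 2 and 3 were by far the most alike replicates, with an r of 0.989. Measured against counting noise, their chi-square per degree of freedom was 7.85, and other pairs within groups had 33.4 to 91.2. Fcgr2b, Fcgr3 and Fcgr4 were highest in these 2 libraries. The tests treat them as separate libraries, and no label says whether they came from separate animals.

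Levels were compared between members per kilobase of joined exons. The gamma chain gene Fcer1g stood first, at a mean of 1101 CPM per kb over the 9 libraries, above 99.7% of the tested genes. Among the receptors Fcgr3 had 802 CPM per kb, Fcgr1 331 and Fcgr4 308. The inhibitory Fcgr2b had 129.6 CPM per kb and Fcgrt 59.2, which was still above 93.5% of the tested genes. The order of the receptors depended on the group only for Fcgr1 and Fcgr4. Group means per kb (with SD) of Fcgr1 and Fcgr4 were 309 (48.3) and 298 (9.22) in CTR, 289.8 (62.0) and 146 (96.7) in OAT-1746, 395 (25.4) and 273 (19.8) in anti-PD-1, and 329.9 (33.6) and 445 (197) in COMB. In CTR and COMB the 2 means differed by less than the larger SD and by more than the smaller one, and in OAT-1746 and anti-PD-1 by more than both. The libraries varied most in Fcgr4, whose highest level was 7.50 times its lowest, against 2.27 times for Fcgr2b, 2.18 for Fcer1g, 1.74 for Fcgrt, 1.68 for Fcgr1 and 1.63 for Fcgr3. These became 2.71 times for Fcgr4, 2.07 for Fcgr2b and 1.61 for Fcer1g without OAT-1746 replicate 2, the lowest library for 5 of the members.

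**Figure D1:**
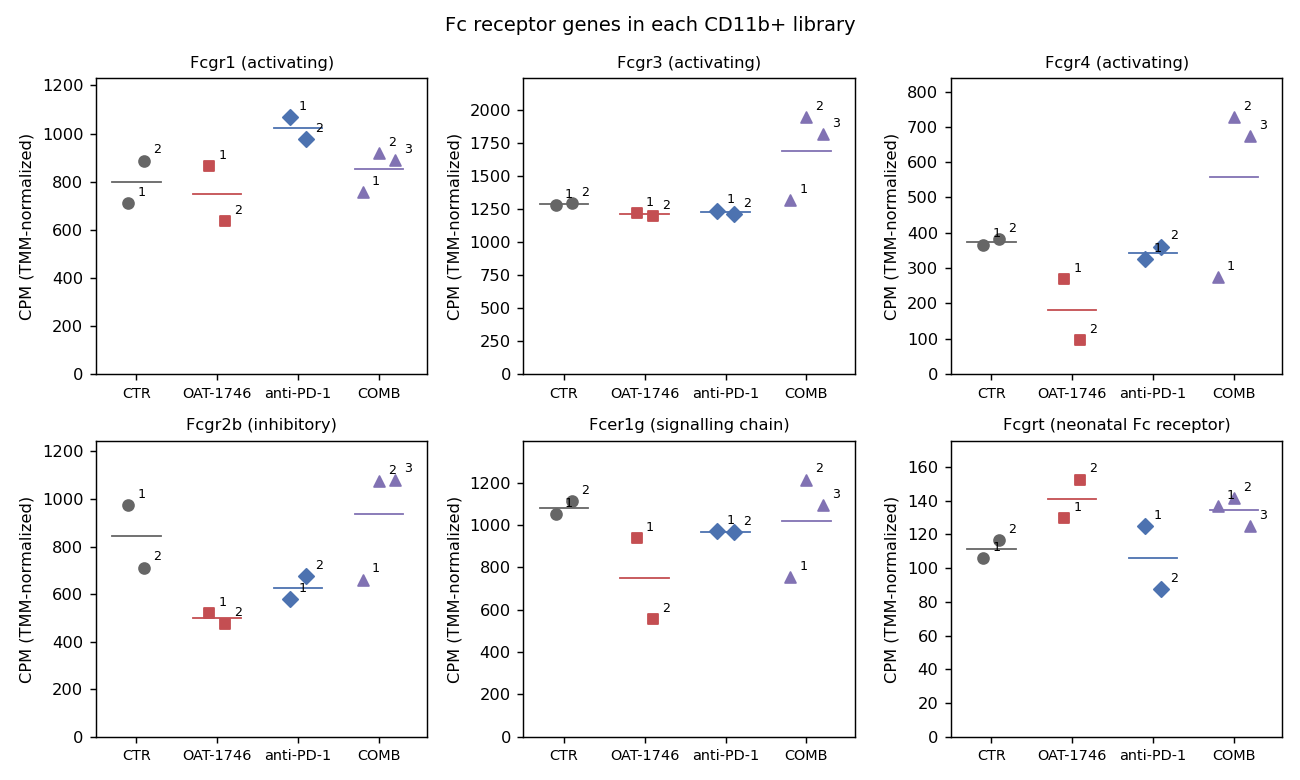
TMM-normalized CPM of the 6 genes (vertical axis, from 0) in each library by group, with replicate numbers beside the points and group means as lines. Fcgr4 spans 97.0 CPM in OAT-1746 replicate 2 to 728 CPM in COMB replicate 2.

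Fcgr1 (ENSMUSG00000015947, chromosome 3 from 96282909 to 96293969 of GRCm38, minus strand) encodes the high-affinity activating receptor CD64. It had 711 and 888 CPM in CTR, 864 and 637 in OAT-1746, 1069 and 976 in anti-PD-1, and 755, 918 and 889 in COMB. Both anti-PD-1 libraries lay above every other library, while the remaining groups overlapped. The group mean (± SD; n = 2, or 3 for COMB) was 1022 ± 65.8 CPM for anti-PD-1, 854 ± 87.1 for COMB, 799 ± 125 for CTR and 750.4 ± 160 for OAT-1746.

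Fcgr3 (ENSMUSG00000059498, chromosome 1 from 171051174 to 171064935, minus strand) encodes the low-affinity activating receptor CD16. It had 1279.6 and 1297 CPM in CTR, 1222 and 1197 in OAT-1746, 1239.5 and 1214 in anti-PD-1, and 1316, 1948 and 1819 in COMB. The 3 COMB libraries lay above all others, replicate 1 only just, and the other 3 groups were close together. Its group means were 1288 ± 12.4 CPM for CTR, 1209.6 ± 18.0 for OAT-1746, 1227 ± 18.3 for anti-PD-1 and 1694 ± 334 for COMB.

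Fcgr4 (ENSMUSG00000059089, chromosome 1 from 171018920 to 171029761, plus strand) encodes the activating receptor CD16-2, which binds mouse IgG2 subclasses. It had 366 and 383 CPM in CTR, 269 and 97.0 in OAT-1746, 326 and 361 in anti-PD-1, and 275, 728 and 673 in COMB. Replicates 2 and 3 of COMB were the highest libraries, and COMB replicate 1 lay beside OAT-1746 replicate 1. The mean was 375 ± 11.6 CPM for CTR, 183 ± 121 for OAT-1746, 344 ± 24.8 for anti-PD-1 and 559 ± 247 for COMB.

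Across the 9 libraries log2 CPM of Fcgr3 and Fcgr4 had an r of 0.758 (0.931 without OAT-1746 replicate 2), and that of Fcgr1 and Fcgr3 an r of 0.218 (0.05 without it). Fcgr1 and Fcgr4 had an r of 0.609 (0.183 without that library). Because the activating receptors did not all vary alike, the bases before their most upstream listed starts are shown, from RefSeq (GRCm38.p6), where all 6 members had an entry. They lie at chr3:96293970-96294219 (minus strand) for Fcgr1, chr1:171059404-171059626 (minus strand) for Fcgr3 and chr1:171018676-171018919 (plus strand) for Fcgr4. The window of Fcgr3 lies inside the gene as GENCODE annotates it, downstream of the start of that annotation, and so does that of Fcgr2b, which is not shown. Only bases outside annotated exons are printed. Capitals mark matches, on either strand and with no overlap between them, to TTCNNNGAA, GAGGAA or GAAANNGAA.
Fcgr1: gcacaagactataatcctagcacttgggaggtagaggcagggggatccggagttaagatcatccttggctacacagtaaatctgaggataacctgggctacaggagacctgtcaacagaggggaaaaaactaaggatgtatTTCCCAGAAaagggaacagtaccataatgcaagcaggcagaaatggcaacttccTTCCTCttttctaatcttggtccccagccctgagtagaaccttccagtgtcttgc
Fcgr3: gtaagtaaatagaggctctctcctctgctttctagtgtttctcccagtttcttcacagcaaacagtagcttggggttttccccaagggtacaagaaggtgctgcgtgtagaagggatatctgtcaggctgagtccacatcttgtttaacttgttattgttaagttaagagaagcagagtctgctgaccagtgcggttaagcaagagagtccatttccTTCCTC
Fcgr4: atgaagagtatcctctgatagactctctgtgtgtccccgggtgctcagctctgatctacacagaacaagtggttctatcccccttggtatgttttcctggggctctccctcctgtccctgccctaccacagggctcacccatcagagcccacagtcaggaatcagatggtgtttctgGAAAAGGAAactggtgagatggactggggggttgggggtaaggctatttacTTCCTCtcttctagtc

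The first motif, a gamma interferon activation site, was found before Fcgr1, 109 to 101 bases upstream of its start, and in 7.02% of 32851 promoters of 250 bases. GAGGAA, the core of a PU.1-type ETS site, was found before Fcgr1, Fcgr3 and Fcgr4 and in 23.3% of promoters. An interferon-stimulated response core, GAAANNGAA, was found before Fcgr4, 73 to 65 bases upstream, and in 7.13% of promoters. The form of it searched first, with 1 more A at the end, also matched before Fcgr4 and was held by 2.98% of promoters. The 250 bases before Fcgr2b, Fcer1g and Fcgrt held 0 matches, which says only that these letters are not in those windows. A match is a description of the sequence.

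Fcgr2b (ENSMUSG00000026656, chromosome 1 from 170958617 to 170976547, minus strand) encodes the inhibitory receptor CD32. It had 974 and 711 CPM in CTR, 521 and 476 in OAT-1746, 579 and 675 in anti-PD-1, and 660.5, 1074 and 1081 in COMB. The OAT-1746 libraries were the lowest 2, the anti-PD-1 libraries and COMB replicate 1 came next, and CTR overlapped with COMB. Its mean was 939 ± 241 CPM for COMB, 843 ± 186 for CTR, 627 ± 68.2 for anti-PD-1 and 499 ± 32.0 for OAT-1746. Fcgr2b and Fcgr3 share sequence: 166 of the 1733 stretches of 50 bases in Fcgr3 transcripts (9.58%) also occur in Fcgr2b, where 249 of 5685 (4.38%) are shared with another gene. Fcgr1, Fcgr4, Fcer1g and Fcgrt had 0 such stretches.

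Fcer1g (ENSMUSG00000058715, chromosome 1 from 171229572 to 171234365, minus strand) encodes the common gamma chain. It had 1050.0 and 1112 CPM in CTR, 940.2 and 557 in OAT-1746, 973 and 965 in anti-PD-1, and 756, 1214 and 1095 in COMB. OAT-1746 replicate 2 was the lowest library and COMB replicate 1 the next, while COMB replicate 2 was the highest. The mean was 1081 ± 43.6 CPM for CTR, 748 ± 271 for OAT-1746, 969 ± 5.55 for anti-PD-1 and 1022 ± 238 for COMB. Relative to the summed per-kb level of Fcgr1, Fcgr3 and Fcgr4, Fcer1g stood at 0.922 and 0.912 in CTR, 0.859 and 0.629 in OAT-1746, 0.803 and 0.810 in anti-PD-1, and 0.681, 0.676 and 0.650 in COMB. On this measure both CTR libraries lay above all treated ones.

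Fcgrt (ENSMUSG00000003420, chromosome 7 from 45092990 to 45103851, minus strand) encodes the heavy chain of the neonatal receptor. It had 106 and 117 CPM in CTR, 129.6 and 152 in OAT-1746, 125 and 87.5 in anti-PD-1, and 137, 142 and 125 in COMB. The OAT-1746 and COMB libraries lay above both CTR libraries. Unlike the other 5 members, which were lowest in OAT-1746 replicate 2, Fcgrt was highest there. Its mean was 111 ± 7.59 CPM for CTR, 141 ± 16.1 for OAT-1746, 106 ± 26.3 for anti-PD-1 and 134 ± 8.56 for COMB. B2m, whose product pairs with it, ranged from 4291 CPM in OAT-1746 replicate 2 to 6934 in CTR replicate 2.

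The effect of the inhibitor alone was asked by comparing OAT-1746 with CTR. Fcgr2b had a log2 fold change of -0.76 (standard error, SE, 0.27; edgeR adjusted p = 0.0991), Fcgr4 of -1.04 (0.51, 0.187) and Fcer1g of -0.53 (0.28, 0.220). Fcgr1 and Fcgr3 each differed by -0.09, and Fcgrt by 0.34 (SE 0.19, adjusted p = 0.237). edgeR called 0 of the 6 members (0% of the tested genes), while 1, Fcgr2b, had an unadjusted p under 0.05 (32.3% of genes). DESeq2 called 1, again Fcgr2b (16.4% of genes; adjusted p = 0.0430, in a range of 0.0430 to 0.371 over the alternatives), and voom 0 (0% of genes). The OAT-1746 libraries lay wholly above CTR for 1 member (30.8% of genes) and wholly below for 4 (32.1% of genes), namely Fcgrt above and Fcgr2b, Fcgr3, Fcgr4 and Fcer1g below. The median over the members was -0.31, and 0.01 over all tested genes. Without OAT-1746 replicate 2 the log2 fold change was -0.47 for Fcgr4 (adjusted p = 0.624), -0.19 for Fcer1g (adjusted p = 0.746), -0.68 for Fcgr2b, 0.23 for Fcgrt and 0.12 for Fcgr1, and the median over the members was -0.13. That of Fcgr2b was -0.50 without CTR replicate 1. Without OAT-1746 replicate 1, edgeR called Fcgr4 (-1.95, adjusted p = 0.0195, range 0.0195 to 0.624) and Fcer1g (-0.96, adjusted p = 0.0320, range 0.0320 to 0.746). Across all genes the count of 0 became 3617 without that library and 278 without COMB replicate 1.

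The antibody alone was compared with CTR. Fcgr1, higher in both anti-PD-1 libraries, had a log2 fold change of 0.35 (SE 0.21, edgeR adjusted p = 0.967). Fcgr2b differed by -0.43 (SE 0.27, adjusted p = 0.967), Fcer1g by -0.16 and Fcgr4 by -0.13, while Fcgr3 and Fcgrt each differed by -0.07. edgeR called 0 of 6 members (0% of genes), and 0 had an unadjusted p under 0.05 (5.12% of genes). DESeq2 called 0 (0.114% of genes) and voom 0 (0% of genes). The anti-PD-1 libraries lay wholly above CTR for 1 member, Fcgr1 (20.6% of genes), and wholly below for 4 (16.9% of genes), namely Fcgr2b, Fcgr3, Fcgr4 and Fcer1g. The median was -0.10 over the members and 0.02 over all tested genes. Without CTR replicate 1 Fcgr1 differed by 0.20 and Fcgr2b by -0.18, and without CTR replicate 2 by 0.52 and -0.64. Fcgr4 and Fcgrt differed by -0.05 and -0.34 without anti-PD-1 replicate 1, and by -0.21 and 0.16 without anti-PD-1 replicate 2.

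Both agents together were compared with the same CTR libraries. Fcgr4 had a log2 fold change of 0.58 (SE 0.46, edgeR adjusted p = 0.804), Fcgr3 of 0.40 (0.19, 0.767) and Fcgrt of 0.27 (0.18, 0.789). Fcgr2b differed by 0.16, Fcgr1 by 0.10 and Fcer1g by -0.08. edgeR called 0 members (0% of genes), 0 had an unadjusted p under 0.05 (6.58% of genes), DESeq2 called 0 (0.285% of genes) and voom 0 (0.0160% of genes). COMB lay wholly above CTR for 2 members, Fcgr3 and Fcgrt (12.1% of genes), and wholly below for 0 (15.8% of genes). The median was 0.21 over the members and 0.00 over all tested genes. Fcgr4 differed by 0.88 without COMB replicate 1 and by 0.34 without COMB replicate 2, and Fcer1g by 0.07 and -0.22. Leaving out CTR replicate 1 gave 0.42 for Fcgr2b and -0.03 for Fcgr1, and leaving out CTR replicate 2 gave -0.06 and 0.26. The comparisons with CTR share its 2 libraries.

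The antibody in mice given the inhibitor was asked by comparing COMB with OAT-1746. The inhibitory receptor gene Fcgr2b rose 1.88-fold, a log2 fold change of 0.91 (SE 0.25, edgeR adjusted p = 0.0422), and every COMB library lay above both OAT-1746 libraries. The activating Fcgr4 had a log2 fold change of 1.61, or 3.06-fold (SE 0.48, adjusted p = 0.0518), and Fcgr3 of 0.49 (SE 0.19, adjusted p = 0.0976). Fcer1g differed by 0.45, Fcgr1 by 0.19 and Fcgrt by -0.07 (adjusted p from 0.240 to 0.799). edgeR called 1 of the 6 members (15.8% of genes, 1979), and 3 had an unadjusted p under 0.05 (37.1% of genes). DESeq2 called 3, Fcgr2b, Fcgr3 and Fcgr4 (25.4% of genes), and voom 2, Fcgr2b and Fcgr4 (22.4% of genes). COMB lay wholly above OAT-1746 for 3 members, Fcgr2b, Fcgr3 and Fcgr4 (25.0% of genes), and wholly below for 0 (28.9% of genes). The median was 0.47 over the members and 0.00 over all tested genes.

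The call of Fcgr2b depended on the libraries. Its adjusted p was 0.0425 without OAT-1746 replicate 1 and 0.0153 without COMB replicate 1. It was 0.202 without OAT-1746 replicate 2, 0.139 without COMB replicate 2 or 3, 0.0552 and 0.0579 without CTR replicate 1 or 2, and 0.0609 and 0.0604 without anti-PD-1 replicate 1 or 2. Over all 16 alternatives it ranged from 0.00338 to 0.237 and was under 0.05 in 8, while the log2 fold change of Fcgr2b ran from 0.79 to 1.08. For Fcgr4 the log2 fold change was 1.07 without OAT-1746 replicate 2, 2.53 without OAT-1746 replicate 1 (adjusted p = 0.00643, range 0.00335 to 0.246) and 1.90 without COMB replicate 1 (adjusted p = 0.0194). Without COMB replicate 1 Fcgr3 was also called (0.61, adjusted p = 0.0274, range 0.0274 to 0.374), and without OAT-1746 replicate 1 so was Fcer1g (0.88, adjusted p = 0.0334, range 0.0334 to 0.794). Fcer1g differed by 0.13, Fcgr1 by -0.00403 and Fcgrt by 0.07 without OAT-1746 replicate 2, with a median of 0.31 over the members. Over all genes, edgeR called 2923 (23.4%) without COMB replicate 1. The count of 1979 genes was 27 without OAT-1746 replicate 2, 14 and 5 without COMB replicate 2 or 3, 734 and 808 without CTR replicate 1 or 2, 861 and 927 without anti-PD-1 replicate 1 or 2, and 4033 without OAT-1746 replicate 1.

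**Figure D2:**
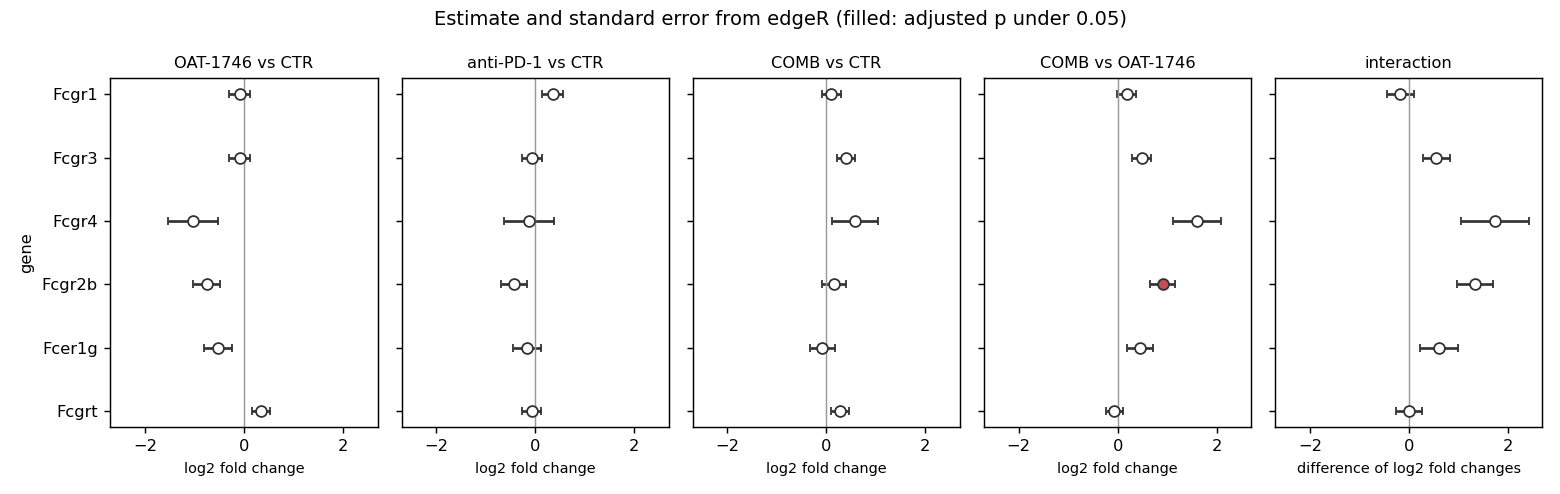
Log2 fold change with its standard error (horizontal axis) of each gene in 4 comparisons, and the difference of the antibody's effect with and without OAT-1746 (interaction), from edgeR. The filled point is Fcgr2b in COMB against OAT-1746, at 0.91.

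**Figure D3:**
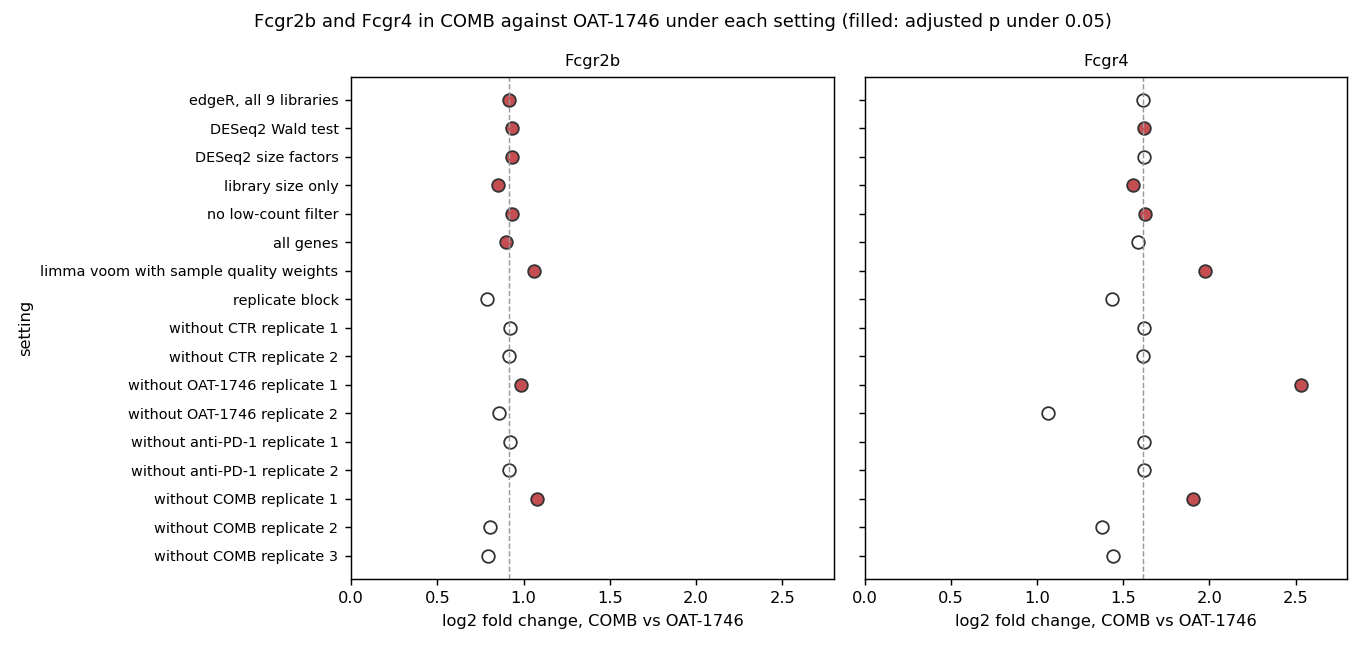
Log2 fold change of Fcgr2b and Fcgr4 in COMB against OAT-1746 (horizontal axis) under each setting (vertical axis), filled where the adjusted p was under 0.05 and with the edgeR value as a dashed line. Fcgr2b lies between 0.79 and 1.08 and Fcgr4 between 1.07 and 2.53.

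The antibody's effect averaged over both levels of the inhibitor was 0.74 for Fcgr4 (SE 0.34, edgeR adjusted p = 0.300), 0.27 for Fcgr1 (0.14, 0.344) and 0.24 for Fcgr2b (0.18, 0.475) on the log2 scale. It was 0.21 for Fcgr3, 0.15 for Fcer1g and -0.07 for Fcgrt. edgeR called 0 members (0.00798% of genes), 0 had an unadjusted p under 0.05 (17.5% of genes), DESeq2 called 0 (2.55% of genes) and voom 0 (0.0319% of genes). The libraries from mice given the antibody lay wholly above those without it for 0 members (1.67% of genes) and wholly below for 0 (1.32% of genes). It became 0.47 for Fcgr4, 0.17 for Fcgr1 and -0.01 for Fcer1g without OAT-1746 replicate 2, and for Fcgr2b 0.37 and 0.14 without CTR replicate 1 or 2. Without OAT-1746 replicate 1 edgeR called Fcgr4 (1.20, adjusted p = 0.0323, range 0.0323 to 0.647), and the count over all genes moved from 1 to 1478. That count was 0 without either CTR library, anti-PD-1 replicate 1 or any COMB library.

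The interaction tests whether the antibody's effect with OAT-1746 differs from that without it. For Fcgr2b the difference was 1.34 on the log2 scale (SE 0.36, edgeR adjusted p = 0.102), from -0.43 without the inhibitor to 0.91 with it. For Fcgr4 it was 1.74 (SE 0.69, adjusted p = 0.159), for Fcer1g 0.61 (0.38, 0.333) and for Fcgr3 0.56 (0.28, 0.230). Fcgr1 differed by -0.17 (adjusted p = 0.730) and Fcgrt by -0.000889 (adjusted p = 0.999). edgeR called 0 members (0.359% of genes), while 2, Fcgr2b and Fcgr4, had an unadjusted p under 0.05 (26.2% of genes). DESeq2 called 1, Fcgr2b (9.50% of genes; adjusted p = 0.0105, range 0.0105 to 0.400), and voom 0 (3.41% of genes). Fcgr2b was called by edgeR without OAT-1746 replicate 1 (adjusted p = 0.0388) and without COMB replicate 1 (adjusted p = 0.0432), and Fcgr4 without OAT-1746 replicate 1 (2.66, adjusted p = 0.0180, range 0.0180 to 0.429). The difference became 0.29 for Fcer1g, -0.36 for Fcgr1 and 0.13 for Fcgrt without OAT-1746 replicate 2. The count of 45 genes was 2734 without OAT-1746 replicate 1, 424 without COMB replicate 1, 26 without OAT-1746 replicate 2, and 0 without either CTR library, anti-PD-1 replicate 2 or COMB replicate 2 or 3.

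Activating and inhibitory transcripts were set against each other as the summed per-kb level of Fcgr1, Fcgr3 and Fcgr4 over that of Fcgr2b, a description with no test. This ratio was 7.75 and 11.4 in CTR, 13.9 and 12.3 in OAT-1746, 13.9 and 11.7 in anti-PD-1, and 11.1, 11.1 and 10.3 in COMB. Both libraries of each agent given alone lay above both CTR libraries, anti-PD-1 replicate 2 only just. The COMB libraries lay between those of CTR. With the mean of the 3 log2 levels in place of their sum, OAT-1746 replicate 2 (1.52 on the log2 scale) also lay between the CTR libraries (1.21 and 1.80), and the OAT-1746 group was not apart from CTR. Group means were 9.55 ± 2.55 for CTR, 13.1 ± 1.12 for OAT-1746, 12.8 ± 1.54 for anti-PD-1 and 10.8 ± 0.452 for COMB. On the log2 scale the difference from CTR was 0.48 for OAT-1746, 0.44 for anti-PD-1 and 0.21 for COMB. The pooled SD was 0.20, and the SD within CTR alone was 0.39. These differences rested on the CTR libraries. Without CTR replicate 1 they were 0.20, 0.16 and -0.07, and without CTR replicate 2 they were 0.76, 0.72 and 0.48. With the longest transcript as the length, the ratio ran from 5.52 to 9.89.

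The makeup of the activating receptors also varied. Fcgr4 made up 22.4% and 21.9% of the summed activating level in CTR, 17.1% and 7.63% in OAT-1746, 18.7% and 21.1% in anti-PD-1, and 17.3%, 28.2% and 27.8% in COMB. Fcgr1 held 29.8% and 27.6% in the anti-PD-1 libraries, its highest shares, and 17.2% and 17.8% in COMB replicates 2 and 3, its lowest. Fcgr3 was the largest share in every library, from 51.3% in anti-PD-1 replicate 2 to 68.1% in OAT-1746 replicate 2. Against Fcgr2b alone, Fcgr4 stood at 0.939 per kb in OAT-1746 replicate 2 and between 1.73 and 3.12 in the other libraries.

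**Figure D4:**
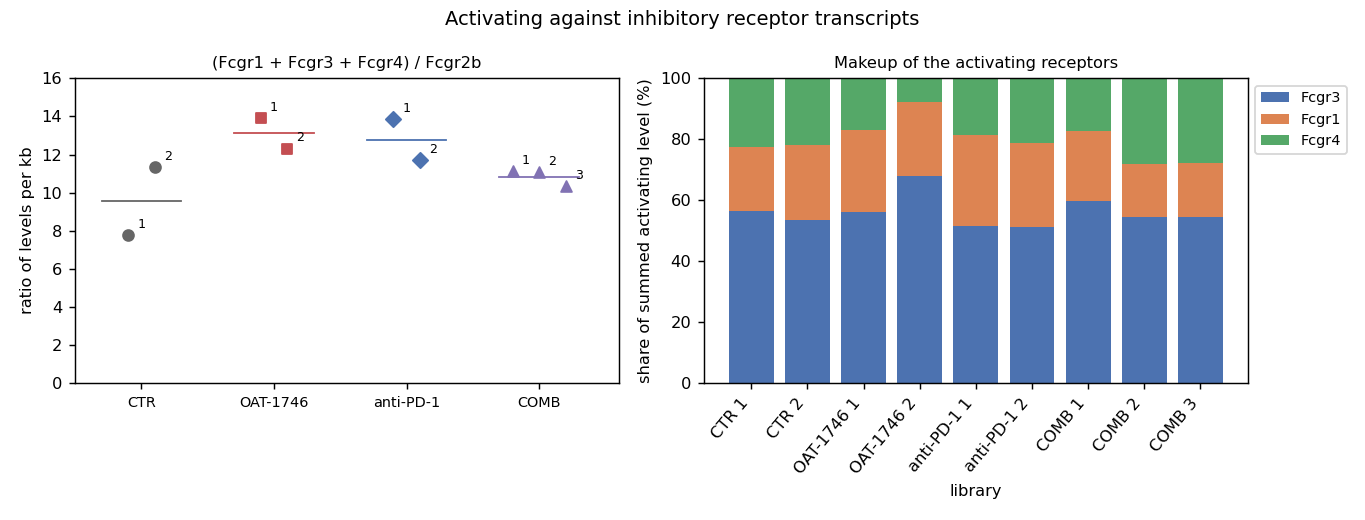
Left, the ratio of summed Fcgr1, Fcgr3 and Fcgr4 levels per kb to that of Fcgr2b in each library, with group means as lines; right, the share of each activating receptor in their summed level (percent). The ratio runs from 7.75 in CTR replicate 1 to 13.9 in OAT-1746 replicate 1 and anti-PD-1 replicate 1.

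Patterns across the 9 libraries were described by Pearson's r of log2 CPM, without a test, and all points share these libraries. Fcgr2b had an r of 0.851 with Fcgr4 (0.863 without OAT-1746 replicate 2), 0.804 with Fcgr3 (0.801) and 0.151 with Fcgr1 (-0.28). Fcgr4 and Fcer1g had an r of 0.924 (0.778 without that library). The genes most like Fcgr2b were H2-DMa (0.985), Slc30a7 (0.976) and C1ra (0.974). Those most like Fcgr4 were the glycolytic genes Gapdh (0.998), Pkm (0.995) and Aldoa (0.993), among 1009 genes with an r over 0.9, or 282 without OAT-1746 replicate 2. Fcer1g was most like Actg1 (0.989) and Napa (0.986), with 675 genes over 0.9, or 67 without that library. Fcgr1 was most like Pnp (0.978), Ccnd3 (0.975) and Casp4 (0.963). Fcgr3 was most like Pafah1b3 (0.975), Bnip3 (0.966) and Nlrx1 (0.958), and Fcgrt most like Stra6 (0.974), Tmem18 (0.964) and Rcn2 (0.961). By rank, Spearman's rho of Fcgr3 with its 3 genes was lower, at 0.767, 0.617 and 0.80. For the other members it was 0.90 or more.

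Genes that act with the receptors were described as lists in COMB against OAT-1746, where Fcgr2b was called. Of 20 genes of activating signalling 11 were higher and 9 lower (median log2 fold change 0.01), and edgeR called 0, with 4 at an unadjusted p under 0.05 and 2 called by DESeq2 (37.1% and 25.4% of all genes). Syk, the kinase recruited by Fcer1g, differed by -0.57 (adjusted p = 0.0707). Of 11 genes of inhibitory signalling 4 were higher and 7 lower (median -0.07) and 3 were called, all lower. The largest change of that list was in Dok2, at 1.35 (edgeR adjusted p = 0.0976, DESeq2 adjusted p = 0.0290). Among those called, Inpp5d, whose phosphatase is recruited by the product of Fcgr2b, fell by 0.75 on the log2 scale (SE 0.18, adjusted p = 0.0318) while Fcgr2b rose. Inpp5d had 795 and 869 CPM in CTR, 1094 and 1419.6 in OAT-1746, 793 and 894 in anti-PD-1, and 837, 661 and 741 in COMB, with both OAT-1746 libraries the highest. Pag1, an adaptor for the kinase Csk, fell by 0.78 (adjusted p = 0.0486). Of 16 genes of the phagocytic cup 11 were higher (median 0.18) and 3 were called, 1 higher and 2 lower, Wasf2 (-0.85) and Elmo1 (-0.77). Arpc1b differed by 0.80 (edgeR adjusted p = 0.0802, DESeq2 adjusted p = 0.0294), and DESeq2 called 4 genes of that list higher and 2 lower.

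Among 4 adapters with an ITAM or related motif, Fcer1g included, all 4 were higher in COMB (median 0.76) and 1 was called, Hcst (1.17, adjusted p = 0.0334). Tyrobp, the other main ITAM adapter of myeloid cells, differed by 0.59 (adjusted p = 0.0689). Of 7 receptors that pair with Fcer1g, 5 were tested and all 5 were higher (median 1.09). Clec4d was the 1 called (1.98, adjusted p = 0.0489), and Clec4n differed by 2.11 (adjusted p = 0.0656). Of 11 other ITIM receptors 7 were higher (median 0.27) and 3 were called, of which Clec12a rose (1.37, adjusted p = 0.0419) and 2 fell. Of 11 genes listed as other receptors for immunoglobulin, Fc receptor-like genes such as Fcrls included, 6 were tested and 3 were higher (median 0.09). The name of this list does not say what each product binds. The 1 called was Fcrlb (2.32, adjusted p = 0.0469), while Fcrls differed by -0.71 (adjusted p = 0.111). B2m, the partner of Fcgrt, differed by 0.17, or by -0.07 without OAT-1746 replicate 2. The 5 IgG chain genes were not among the genes tested, and their summed level was at most 34.0 CPM (COMB replicate 3). Of the 3 genes of the antibody's target and its ligands 2 were higher (median 0.95), and Pdcd1lg2 was called (3.56, adjusted p = 0.0287). Of 10 regulators of these receptors 5 were higher (median -0.02), and 1 was called, Il10ra, which fell by 0.58 (adjusted p = 0.0347). Of further genes of these lists, Ptpn6, a phosphatase that binds ITIMs, differed by 0.17, the transcription factor gene Spi1 by 0.11, Pdcd1, which encodes PD-1, by -0.40 and its ligand gene Cd274 by 0.95 (edgeR adjusted p from 0.186 to 0.622). Over all 12538 genes the median was 0.00 and 15.8% were called.

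Without OAT-1746 replicate 2, edgeR called 0 genes of these lists and of the marker lists in this comparison, against 20 with it and 48 by DESeq2. With all libraries the numbers at an unadjusted p under 0.05 were 4 of 20 (activating signalling), 4 of 11 (inhibitory signalling), 8 of 16 (phagocytic cup), 2 of 4 (ITAM adapters), 2 of 5 (receptors paired with Fcer1g), 6 of 11 (other ITIM receptors), 3 of 6 (other receptors for immunoglobulin), 1 of 3 (the antibody's target and its ligands) and 4 of 10 (regulators). DESeq2 called 2, 4, 6, 2, 2, 6, 2, 1 and 3 of them in the same order. Without OAT-1746 replicate 2, over the genes tested with all libraries, the medians were 0.02 (activating signalling), -0.05 (inhibitory signalling), 0.06 (phagocytic cup), 0.62 (ITAM adapters), 0.31 (receptors paired with Fcer1g), 0.05 (other ITIM receptors), -0.33 (other receptors for immunoglobulin), 0.48 (the antibody's target and its ligands) and -0.08 (regulators), beside 0.02 over all genes. These alternatives, and every list median or spread of levels given without that library, were chosen after seeing the data. Between OAT-1746 and CTR the same lists had medians of -0.12 (activating signalling), 0.00 (inhibitory signalling), -0.34 (phagocytic cup), -0.55 (ITAM adapters), -1.20 (receptors paired with Fcer1g), -0.45 (other ITIM receptors), -0.55 (other receptors for immunoglobulin), -0.69 (the antibody's target and its ligands) and 0.17 (regulators), beside 0.01 over all tested genes. These became -0.12, -0.07, -0.19, -0.25, -0.45, -0.26, -0.36, -0.20 and 0.07, beside -0.01, without OAT-1746 replicate 2. With all libraries edgeR called 0 genes in these 9 lists. In the same order 3 of 20, 5 of 11, 7 of 16, 2 of 4, 1 of 5, 6 of 11, 4 of 6, 1 of 3 and 3 of 10 had an unadjusted p under 0.05 (32.3% of all genes), and DESeq2 called 1, 3, 2, 0, 0, 2, 2, 1 and 1 (16.4% of all genes).

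Markers of the cell types that a CD11b+ sort can hold also varied, in directions that differed between the lists, and in bulk RNA fewer cells of a type and less RNA per cell cannot be told apart. The 10 microglia markers summed to 13471 and 21120.5 CPM in CTR, 28099 and 35425 in OAT-1746, 19877 and 16101 in anti-PD-1, and 24578, 18478.5 and 17349.6 in COMB. OAT-1746 replicate 2 was the highest library and CTR replicate 1 the lowest, and all 10 markers were lower in COMB than in OAT-1746 (median -0.70, or -0.52 without that OAT-1746 library) and wholly below, with 2 called by edgeR, 5 by DESeq2 and 9 at an unadjusted p under 0.05. The 10 monocyte and macrophage markers, led by Tgfbi in every library, summed to 9273 and 8725 CPM in CTR, 6697 and 1017 in OAT-1746, 9213 and 10301 in anti-PD-1, and 6681, 10375 and 10509 in COMB. OAT-1746 replicate 2 was the lowest library, with S100a4 at 0 counts, and 9 of the 10 were higher in COMB than in OAT-1746 (median 0.74; 1 called by edgeR, 3 by DESeq2 and 3 at an unadjusted p under 0.05), against 5 of 10 without that library (median 0.01). The 14 genes of the response to interferon gamma summed to 4927 and 4069 CPM in CTR, 4006 and 1521 in OAT-1746, 4354 and 5417 in anti-PD-1, and 3426, 6499 and 6614 in COMB. COMB replicates 2 and 3, where Fcgr3, Fcgr4 and Fcgr2b were also high, stood above the rest, and all 14 genes were higher in COMB than in OAT-1746 (median 0.93; 1 called by edgeR, 7 by DESeq2 and 7 at an unadjusted p under 0.05), against 12 of 14 without OAT-1746 replicate 2 (median 0.51). Between OAT-1746 and CTR, where Fcgr2b, Fcgr3, Fcgr4 and Fcer1g lay wholly below, all 10 microglia markers lay wholly above (median 0.96, or 0.76 without OAT-1746 replicate 2), with 10 at an unadjusted p under 0.05 and 8 called by DESeq2. All 10 monocyte and macrophage markers were lower (median -1.06, or -0.38 with 6 of 10 lower), 4 of them at an unadjusted p under 0.05 and 3 called by DESeq2, as were all 14 interferon gamma genes (median -0.64, or -0.13 with 9 of 14 lower), with 2 and 1. edgeR called 0 of these 3 lists there. In the interaction all 10 microglia markers were lower (median -0.87, or -0.65 without OAT-1746 replicate 2; 3 at an unadjusted p under 0.05). Of the monocyte and macrophage markers 8 of 10 were higher (0.69, or 0.10 with 6 of 10 higher; 1). Of the interferon gamma genes 13 of 14 were higher (0.55, or 0.11 with 8 of 14 higher; 2), while edgeR and DESeq2 called 0 of these 3 lists. For the antibody's averaged effect all 14 interferon gamma genes were higher (median 0.55; 5 at an unadjusted p under 0.05, 2 by DESeq2). So were 9 of 10 monocyte and macrophage markers (0.71; 2, 1), while all 10 microglia markers were lower (-0.32; 3, 0). Between anti-PD-1 and CTR 11 of 14 interferon gamma genes were higher (0.14; 2, 0), 7 wholly above. The monocyte and microglia lists had 7 of 10 (0.48; 1, 0) and 6 of 10 (0.03; 0, 0) higher. edgeR called 0 in both. Between COMB and CTR 12 of 14 interferon gamma genes were higher (median 0.33), 1 at an unadjusted p under 0.05 (6.58% of genes). So were 6 of 10 monocyte and macrophage markers (0.05) and 8 of 10 microglia markers (0.26), with 0 at that threshold. edgeR and DESeq2 called 0 of these 3 lists there. Among all genes 37.1% had an unadjusted p under 0.05 in COMB against OAT-1746, 32.3% in OAT-1746 against CTR and 26.2% in the interaction. That share was 17.5% for the averaged effect and 5.12% for anti-PD-1 against CTR. In the same order DESeq2 called 25.4%, 16.4%, 9.50%, 2.55% and 0.114%. OAT-1746 lay wholly above CTR for 30.8% of genes and wholly below for 32.1%, and anti-PD-1 wholly above for 20.6%. COMB lay wholly below OAT-1746 for 28.9%. The part of these lists in the results for the members was not tested.

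**Figure D5:**
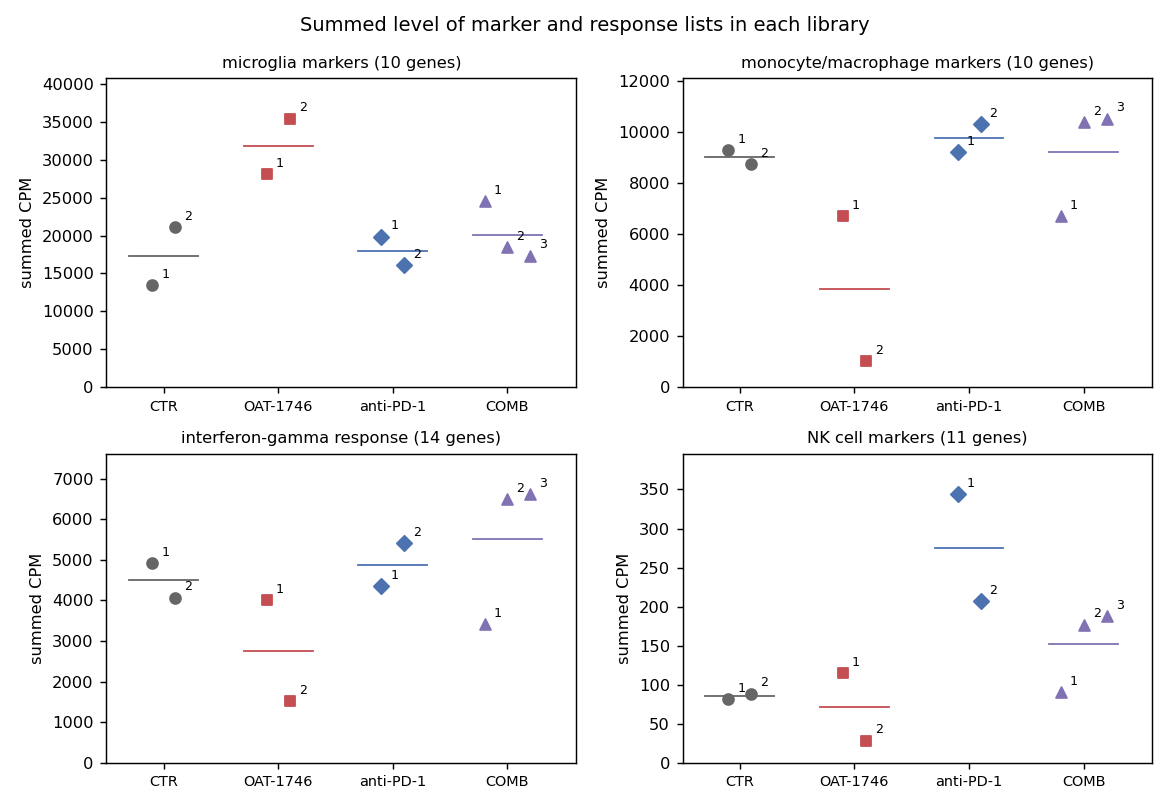
Summed CPM (vertical axis, from 0) of the microglia, monocyte and macrophage, interferon gamma response and NK cell lists in each library by group, with group means as lines. In OAT-1746 replicate 2 the microglia sum is 35425 and the monocyte and macrophage sum 1017.

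The 11 NK cell markers, cells that carry Fcgr3, summed to 81.6 and 88.7 CPM in CTR, 115 and 28.3 in OAT-1746, 344 and 207 in anti-PD-1, and 90.9, 177 and 188 in COMB, with Klrk1 or Gzma the highest in each library. The anti-PD-1 libraries were the highest. All 11 were higher in anti-PD-1 than in CTR (median 2.25), 9 at an unadjusted p under 0.05 and 4 called by DESeq2, against 5.12% and 0.114% of all genes. For COMB against CTR all 11 were higher as well (median 1.30, 4 at an unadjusted p under 0.05, 0 called by DESeq2), and for the antibody's averaged effect too (median 1.66, 10 and 6). In the interaction 9 of 11 were lower (median -1.02, or -1.78 without OAT-1746 replicate 2), 3 at an unadjusted p under 0.05 and 2 called by DESeq2. edgeR called 0 of them in each of these comparisons. In COMB against OAT-1746 10 of these markers were higher (median 0.92, or 0.37 without OAT-1746 replicate 2), edgeR called 0, with 3 at an unadjusted p under 0.05, and DESeq2 called 2. Border-associated macrophage markers summed to 618 to 887 CPM (3 of 8 higher in COMB, median -0.17; 1 called by edgeR, higher, 2 by DESeq2 and 4 at an unadjusted p under 0.05) and neutrophil markers to 329 to 742 CPM (Csf3r highest; 3 of 10 higher, median -0.18; 1 called by edgeR and DESeq2, lower, and the 1 at an unadjusted p under 0.05). The 2 medians became -0.04 and 0.09 without OAT-1746 replicate 2. Dendritic cell markers summed to 159 to 1504 CPM (Itgax highest), with 7 of 7 higher in COMB (median 0.28, or 0.04 without that library) and 0 called by edgeR, against 1 at an unadjusted p under 0.05 and 0 called by DESeq2. Between OAT-1746 and CTR 8 of 10 neutrophil markers were higher (median 0.75, or 0.35 without OAT-1746 replicate 2; 5 at an unadjusted p under 0.05, 1 called by DESeq2), 5 of 8 border-associated macrophage markers higher (0.28, or 0.19; 4, 3) and 6 of 7 dendritic cell markers lower (-0.55, or -0.33; 3, 0). edgeR called 0 of them. T cell markers summed to at most 16.8 CPM (Cd4 highest; 5 of 7 tested higher, median 0.46), B cell markers to at most 26.3 CPM (Cd79b; 3 of 4, median 0.71) and mast cell and basophil markers to at most 16.4 CPM (Hdc; 1 of 1, 0.20). edgeR and DESeq2 called 0 genes of these 3 lists, and 0 had an unadjusted p under 0.05. Their medians, over the same genes, became 0.52, -0.16 and -0.49 without OAT-1746 replicate 2. Cd3e was at 0 counts in CTR replicate 2 and OAT-1746 replicate 1. Between COMB and CTR 6 of 10 neutrophil markers were higher (median 0.52), 5 of them wholly above (12.1% of genes). In that comparison 7 of 8 border-associated macrophage markers were higher (0.10) and 5 of 7 dendritic cell markers lower (-0.03). Of these, 3 neutrophil markers had an unadjusted p under 0.05, while edgeR and DESeq2 called 0. The shares of all genes beside these counts are those given above. The part of these markers in the levels of Fcgr3 and the other members was not tested.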

How the data were processed

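The authors deposited a raw count of read pairs for each gene in each library, with no normalization. They had used Trimmomatic for trimming, STAR for alignment to mm10, Picard to mark duplicates and HTSeq, in reverse-stranded mode and at a mapping quality of at least 10, for counting. Reads that fit Fcgr2b and Fcgr3 equally well would be lost at that step. All 9 count columns were used, and none of the authors' own comparisons.

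In R 4.3.3, protein-coding genes of GENCODE M21 that passed filterByExpr (minimum count 10) were scaled by TMM and fitted in edgeR 4.0.16 by quasi-likelihood with a mean for each of 4 groups. The common coefficient of variation was 0.214. The quasi-likelihood fit moderated the spread of each gene with 4.15 prior degrees of freedom. Calls required an adjusted p (Benjamini-Hochberg over the 12538 genes tested) under 0.05. Standard errors are the absolute log2 fold change over the square root of F. The alternatives were DESeq2 1.42.0, voom with sample quality weights in limma 3.58.1, other scalings and filters, all genes, the replicate number as a block and each library left out. The steps were tested on simulated data. Levels per kilobase use the joined exon length. Python 3.11.15 with matplotlib 3.10.9 drew the figures.

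The members and the 21 other lists, of signalling, related receptors, regulators and cell type markers, were chosen with earlier results of these data known. Genes named are the members, Tyrobp, Syk, Inpp5d, Ptpn6, B2m, Fcrls, Spi1, Pdcd1 and Cd274; from each list and contrast, up to 3 genes with the largest absolute log2 fold change among those with a mean of at least 5 CPM and an unadjusted p under 0.05; and for each member the 3 genes with the highest Pearson's r of log2 CPM (prior count 2). Some genes these rules choose are not reported here. Marker genes named as the most abundant of a list, or as near 0, were chosen after their values were seen. The interferon motif was first searched with 1 more A at its end and was shortened after its matches were seen. Both shares are given.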

Additional observations from a re-analysis of the deposited data

How the results depend on the processing

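Scaling alternatives moved the median of all genes by less than 0.1 on the log2 scale. Members called in COMB against OAT-1746 numbered 1 in edgeR, 3 with DESeq2, 2 with library size only, with no filter on low counts and with voom, and from 0 to 3 with a library left out. In that comparison 1953 genes (15.6%) were called with library size only and 2263 (14.1%) with no filter on low counts. DESeq2 called 1 member in OAT-1746 against CTR and 1 in the interaction. With a library left out the range was 0 to 2 in both and 0 to 1 for the averaged effect.

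Genes called with DESeq2 numbered 1972 in OAT-1746 against CTR, 14 for anti-PD-1, 35 for COMB against CTR, 3062 for COMB against OAT-1746, 320 for the averaged effect and 1053 for the interaction. With no filter on low counts they numbered 587 in OAT-1746 against CTR, 2 in COMB against CTR, 9 for the averaged effect and 146 for the interaction. voom called 2 genes in COMB against CTR, 4 for the averaged effect and 428 for the interaction, where library size only gave 24 and all genes 18. With a library left out the counts ran from 0 to 3617 (OAT-1746 against CTR), 5 to 4033 (COMB against OAT-1746), 0 to 1478 (averaged effect) and 0 to 2734 (interaction).

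Libraries of 1 replicate number share only that number, and correlations of their residuals between groups ran from -0.349 to 0.0999. With the replicate block 0 members and 2 genes were called in COMB against OAT-1746, where Fcgr2b had an adjusted p of 0.237, and 0 genes were called for the averaged effect and the interaction. The difference for Fcgrt in the interaction was 0.0504 with this replicate block.

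Estimates near 0 changed sign. That of Fcer1g in COMB against CTR was 0.00374 with voom. That of Fcgrt in the interaction was 0.0236 with DESeq2, 0.0233 with its size factors, 0.0175 with no filter and 0.0202 with all genes. With a library left out Fcgr1 ran from -0.33 to 0.12 in OAT-1746 against CTR, -0.0319 to 0.26 in COMB against CTR, -0.00403 to 0.43 in COMB against OAT-1746 and -0.36 to 0.0741 in the interaction. Fcgr2b ran from -0.0579 to 0.42 in COMB against CTR. Fcer1g ran from -0.22 to 0.0730 in COMB against CTR and -0.0143 to 0.36 in the averaged effect. Fcgrt ran from -0.34 to 0.16 for anti-PD-1, -0.18 to 0.0655 in COMB against OAT-1746, -0.20 to 0.0475 in the averaged effect and -0.22 to 0.28 in the interaction.

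The log2 activating to inhibitory ratio in OAT-1746 against CTR was 0.27 as a mean of logs. With a library left out it ran from 0.20 to 0.76, from 0.16 to 0.72 for anti-PD-1 and from -0.0676 to 0.48 for COMB. Of genes of the other lists, DESeq2 called 28 in OAT-1746 against CTR, 4 for anti-PD-1, 48 in COMB against OAT-1746, 13 for the averaged effect and 6 for the interaction, an alternative chosen after seeing the data. Without OAT-1746 replicate 2, also chosen then, 10 list medians in OAT-1746 against CTR, COMB against OAT-1746 and, for 4 lists, the interaction moved by more than 1 SD between libraries and 38 did not, each over the genes its own fit tested, and the highest over lowest level moved for 2 members and not for 4. A group left with 1 library is assumed to vary like the others. The cause of these differences was not tested.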
